A study of Neurospora crassa OR74A and Aspergillus nidulans FGSC A4 with 22 samples.

Results

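Heat-shock proteins of the cytosol and of the mitochondria were followed at the transcript level in 2 filamentous fungi given crystalline cellulose or no carbon source. The set comprised 10 genes taken by identifier, 5 of the 10596 genes in the *Aspergillus nidulans* table and 5 of the 9582 in the *Neurospora crassa* table. In *A. nidulans* they were the small heat-shock protein genes AN3555 and AN2530 (*hsp30*), AN1163 (the *hsp78* ortholog), AN0858 (*hsp104*) and AN8269 (*hsp90*). In *N. crassa* they were *hsp30* (NCU09364), *hsp78* (NCU02630), *hsp98* (NCU00104), *hsp80* (NCU04142) and *hsp70-1* (NCU09602). The study's lists, made from these same libraries, include AN3555, AN2530, AN1163 and AN0858 among the genes induced on Avicel, so the induction of these 4 genes is not independent of how the set was made up. The study also grouped them with their *N. crassa* orthologs as pairs induced in *A. nidulans* and near constant, or not induced, in *N. crassa*, so the flat response of *hsp30*, *hsp78* and *hsp98* was likewise part of that choice. AN8269 is called *hsp90* after the gene set's own naming, since the study's lists do not annotate it.

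Heat-shock proteins are chaperones, proteins that hold, refold or disentangle other proteins, and many of them are made in larger amounts when proteins unfold, as in heat. Small heat-shock proteins bind unfolding proteins and keep them from clumping without using ATP. The ring-shaped ATPases Hsp104 (cytosol, named Hsp98 in *N. crassa*) and Hsp78 (mitochondria) pull proteins back out of aggregates, together with Hsp70, while Hsp90 (named Hsp80 in *N. crassa*) finishes the folding of kinases, receptors and other clients. A separate set of chaperones works inside the endoplasmic reticulum (ER), where secreted enzymes such as cellulases fold, and it is served by the unfolded protein response.

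RNA was sequenced from hyphae of wild-type *A. nidulans* (strain FGSC A4) that had grown for 16 h at 37°C in medium with 1% glucose and were then kept for 6 h on 2% Avicel, a microcrystalline cellulose, or without carbon. Wild-type *N. crassa* (strain OR74A) had grown for 16 h at 25°C in medium with 2% sucrose and was kept for 4 h on 2% Avicel or without carbon. All cultures were washed once without carbon before the shift, so both arms had been taken off the sugar. Each of the 4 groups had 3 libraries, and the deposited tables give the mean of each group, so that 12 of the 22 samples of the series are represented and no value of a single library can be shown.

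These group means, called the authors' means here, are read counts divided by the size factors of DESeq, a scaling to common depth. The means carry no spread between cultures, and the authors' own comparison of the carbon sources, which the tables also hold, was not used here. No test between carbon sources is therefore given, and genes are called higher or lower below only by their ratio of means. The intervals given cover the counting of reads alone. Species, temperature, time after the shift and pregrowth sugar differed together and cannot be told apart, and the tables were scaled separately, so ratios within a species are set side by side and levels are not. A higher mean can come from more transcript per hypha or from more hyphae that carry the transcript, and these cannot be told apart either.

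The carbon source labels were checked on the main cellobiohydrolase genes, with authors' means of 206832 on Avicel and 422 on no carbon for *cbhA* (AN5176) in *A. nidulans*. For *cbh-1* (NCU07340) in *N. crassa* they were 2398170 on Avicel and 1978 on no carbon. Size factors read from the lowest means ran between 0.807 and 1.09 for the *A. nidulans* libraries and between 0.169 and 2.68 for those of *N. crassa*. The library at 0.169 belonged to the *N. crassa* Avicel group, in which it carries the same weight in the mean as the libraries at 0.957 and 0.884. Its part in the *N. crassa* values could not be tested from group means.

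On Avicel, all 5 *A. nidulans* heat-shock genes had a mean at least 2-fold that on no carbon, a ratio reached by 8.54% of the 9005 genes of that table with an average of the group means of at least 50. A ratio of 4 was passed by 4 of the 5 genes, against 2.84% of all genes, and these were the 4 genes of the study's induced list. None was at least 2-fold lower, as 3.18% of all genes were. The median log2 ratio of Avicel over no carbon was 3.11 for the 5 genes and -0.04 for all genes. Their means summed to 284119 on Avicel and 61454.6 on no carbon, a ratio of 4.62. As a share of all normalized counts of a group, which also depends on transcript length, they took up 0.608% on Avicel and 0.145% on no carbon.

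**Figure D1:**
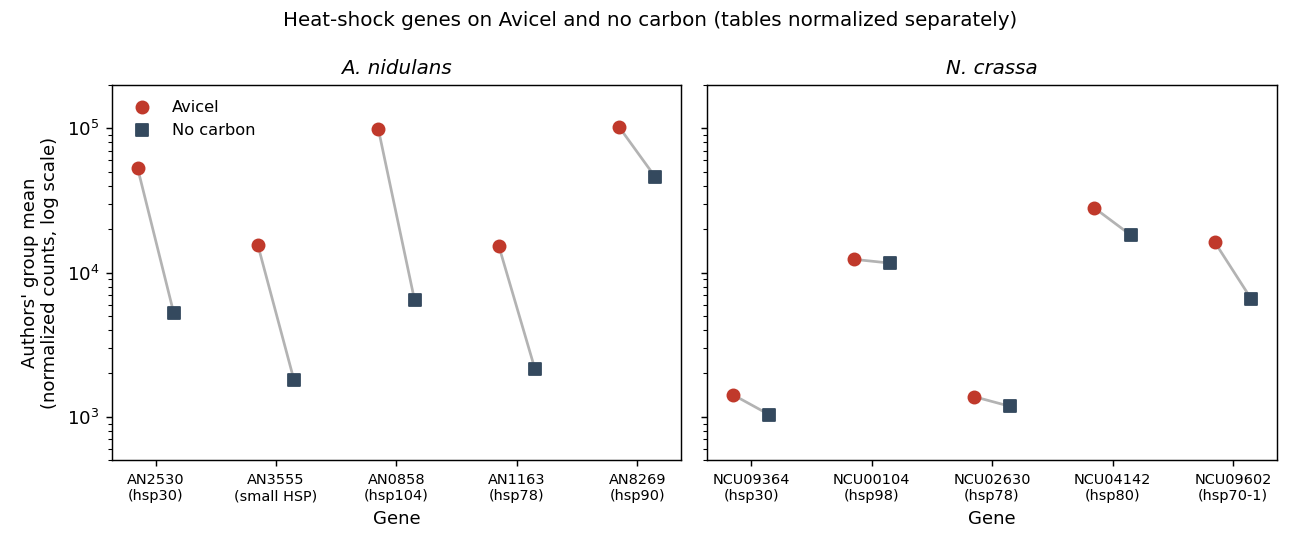
Authors' group means, in normalized counts on a log scale, of the 5 heat-shock genes of each species on Avicel (red circles) and no carbon (dark squares), with a grey line joining the means of a gene. In *A. nidulans* the line drops steeply for every gene except *hsp90* (AN8269), whose ratio was 2.22, and in *N. crassa* it is nearly level for *hsp98* and *hsp78* and steepest for *hsp70-1*, whose ratio was 2.46. Each point is 1 mean of 3 libraries, without error bars because the tables give none.

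The small heat-shock protein genes of *A. nidulans* were 8.61- and 10.1-fold higher on Avicel. AN2530 (*hsp30*) had an authors' mean of 53427.7 on Avicel and 5285 on no carbon, a ratio of 10.1 and a log2 ratio of 3.34 (95% counting interval 3.31 to 3.36). AN3555 had a mean of 15423.6 on Avicel and 1791 on no carbon, a ratio of 8.61 and a log2 ratio of 3.11 (3.07 to 3.15). Both genes thus stood far above the bulk of the table, with a larger log2 ratio in 106 genes for AN2530 and in 131 for AN3555. In the study's gene descriptions both are small heat-shock proteins whose transcripts had been found raised by farnesol, a fungal signalling alcohol, in other work.

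A further small heat-shock protein gene, AN5781, is paired with the same *N. crassa* gene as AN3555 and AN2530 in the study's lists and was also on its induced list. Its authors' mean was 25867.5 on Avicel and 2856 on no carbon, a log2 ratio of 3.18 (3.15 to 3.21) that lay between those of AN2530 and AN3555. The 3 genes together had summed means of 94718.8 on Avicel and 9932 on no carbon, a ratio of 9.54. The log2 ratios of AN2530 and AN3555 differed by 0.23 (counting interval 0.19 to 0.28). Whether the order of the 3 genes exceeds the spread between cultures was not tested.

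Of the 4 genes past a ratio of 4, the disaggregase genes had the largest and the smallest ratio. AN0858 (*hsp104*), for the cytosolic enzyme, had an authors' mean of 98328.7 on Avicel and 6451 on no carbon, a ratio of 15.2 and a log2 ratio of 3.93 (3.91 to 3.95). AN1163, for the ortholog of the mitochondrial enzyme Hsp78 of yeast, had a mean of 15249.6 on Avicel and 2140 on no carbon, a ratio of 7.12 and a log2 ratio of 2.83 (2.80 to 2.87). The log2 ratio of AN0858 exceeded that of AN1163 by 1.10 (1.05 to 1.14), a difference that no rescaling of the group means can move. For AN0858, 86 genes of the table had a larger log2 ratio, and for AN1163 the number was 146. Over the pair the ratio of summed means was 13.2.

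The Hsp90 gene AN8269 shared the direction of these genes at a smaller ratio. Its authors' mean was 101689 on Avicel and 45787.2 on no carbon, a ratio of 2.22 and a log2 ratio of 1.15 (1.14 to 1.16), which 610 genes exceeded. Relative to AN8269, the log2 ratio was larger by 2.78 for AN0858, 2.19 for AN2530, 1.96 for AN3555 and 1.68 for AN1163. AN8269 held down the ratio of the sums, since it took up 0.108% of all normalized counts on no carbon, out of the 0.145% of the 5 genes together. On Avicel it took up 0.218% and AN0858 0.211%.

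**Figure D2:**
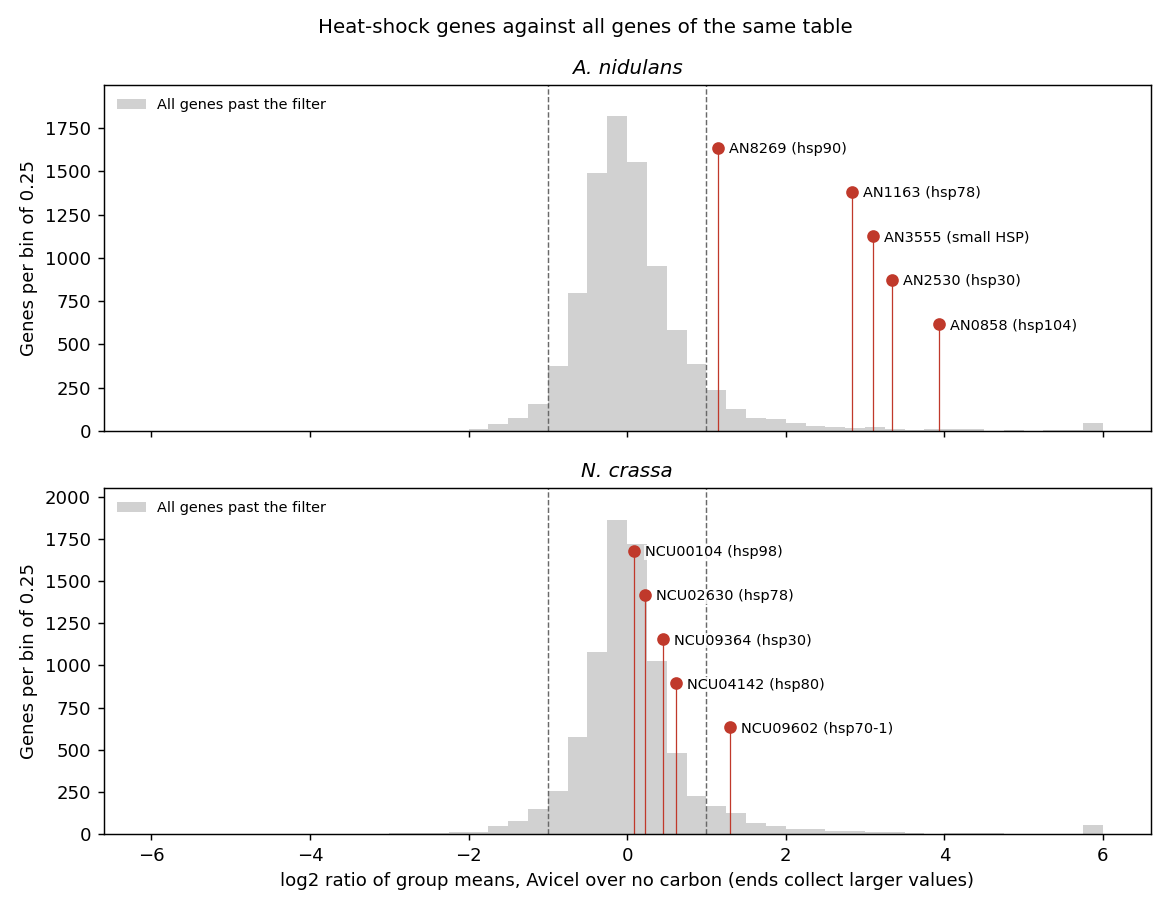
Log2 ratio of group means, Avicel over no carbon, for all genes with an average mean of at least 50 (grey bars, genes per bin of 0.25, values beyond 6 collected at the ends) and for the heat-shock genes (red points, whose height only spaces the labels). Dashed lines mark a 2-fold difference either way. The *A. nidulans* genes lie between 1.15 and 3.93, right of the dashed line, and 4 of the 5 *N. crassa* genes lie within the bulk of the table, between 0.09 and 0.62.

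In *N. crassa* all 5 genes had ratios above 1 as deposited, between 1.06 for *hsp98* and 2.46 for *hsp70-1*, which has no counterpart among the *A. nidulans* genes of the set. At least 2-fold higher on Avicel was 1 of the 5 genes, against 7.73% of the 8194 genes that passed the same limit on the mean, and none was at least 2-fold lower, as 4.1% of all genes were. None reached 4-fold, as 2.81% of all genes did. The median log2 ratio was 0.46 for the 5 genes and 0.00 for all genes. Their summed means were 59478.2 on Avicel and 38733.4 on no carbon, a ratio of 1.54, but as a share of normalized counts they came to 0.104% on Avicel and 0.0926% on no carbon, a ratio of 1.12. The gap between these ratios arises because the summed means of all genes were 1.37 times as large on Avicel as on no carbon in this table, and 1.10 times in that of *A. nidulans*. Setting the sums equal lowers every log2 ratio by 0.45 in *N. crassa* and by 0.14 in *A. nidulans*, and directions that turn under this scaling are named with each gene.

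The small heat-shock protein gene *hsp30* (NCU09364) had an authors' mean of 1423 on Avicel and 1037 on no carbon, a log2 ratio of 0.46 (0.38 to 0.54). This is 1.37-fold, and the gene took up 0.00248% of normalized counts on either medium, so that its direction rests on the scaling. An estimated 2859 reads on Avicel and 6452 on no carbon lay behind these means. A larger log2 ratio was found in 1481 genes of the table.

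The *N. crassa* disaggregase genes were nearly level. Authors' means of *hsp98* (NCU00104) were 12380.8 on Avicel and 11652.4 on no carbon, a log2 ratio of 0.09 (0.06 to 0.11) that became -0.37 with equal sums. For *hsp78* (NCU02630), whose protein the study's lists predict to be mitochondrial, they were 1383 on Avicel and 1184 on no carbon, a log2 ratio of 0.22 (0.14 to 0.30) that became -0.23 with equal sums. Neither gene therefore had a direction that held under both of these scalings. With log2 ratios centred on the median of all genes, *hsp98* had 0.09 and *hsp78* 0.23. The summed means of the pair were 13763.5 on Avicel and 12836.3 on no carbon, a ratio of 1.07.

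The genes *hsp80* and *hsp70-1* of *N. crassa* were higher on Avicel under each scaling tried. The authors' mean of *hsp80* (NCU04142) was 28065.8 on Avicel and 18253 on no carbon, a ratio of 1.54 and a log2 ratio of 0.62 (0.60 to 0.64), or 0.17 with equal sums. That of *hsp70-1* (NCU09602), for an Hsp70, was 16225.8 on Avicel and 6607 on no carbon, a ratio of 2.46 and a log2 ratio of 1.30 (1.27 to 1.32), or 0.84 with equal sums. With equal sums *hsp70-1* was thus under 2-fold, and no *N. crassa* gene of the set reached that limit. A larger log2 ratio than that of *hsp70-1* was found in 438 genes. Its log2 ratio exceeded that of *hsp98* by 1.21 (1.17 to 1.25) and that of *hsp80* by 0.68 (0.64 to 0.71), whichever scaling was used.

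Outside the ER genes taken up below, other *N. crassa* genes with a heat-shock symbol in RefSeq numbered 5. Their log2 ratios ran between -0.04 and 1.35 with a median of 0.85. *hsp70-2* (NCU02075) had authors' means of 12991.3 on Avicel and 5111 on no carbon, a log2 ratio of 1.35 next to the 1.30 of *hsp70-1*. The mitochondrial chaperone genes *hsp60* (NCU01589) and *hsp70-5* (NCU08693) had log2 ratios of 0.85 and 0.87. Those of *hsp88* (NCU05269), for a large relative of Hsp70, and of *hsp90a* (NCU01792) were 0.19 and -0.04, and with equal sums both were negative. Left out of this list was *hsp70-6* (NCU09485), placed below with the ER genes, at a log2 ratio of 2.06. Among the 10 *N. crassa* heat-shock symbols outside the ER genes, members included, 2 were at least 2-fold higher on Avicel, against 7.73% of all genes. None was at least 2-fold lower, as 4.1% of all genes were. The 2 were Hsp70 genes, but with equal sums *hsp70-1* (0.84) and *hsp70-2* (0.89) were under 2-fold. The Hsp70 gene *hsp70-5* was under 2-fold as deposited. No such list could be drawn up for *A. nidulans*, for which only the study's own lists annotate genes.

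Set side by side, the heat-shock genes had the larger log2 ratio in *A. nidulans* in each of 5 pairs. Of these, 4 are orthologs in the study's lists, 2 of which share *hsp30* (NCU09364) of *N. crassa*, and for these the direction of the difference was fixed by the study's grouping of the same libraries, so the values describe its size only. AN8269 and *hsp80* (NCU04142) were matched as Hsp90 genes by the naming of the gene set, not by the study's lists. The difference in log2 ratio, *A. nidulans* minus *N. crassa*, was largest for AN0858 and *hsp98*, at 3.84 (counting interval 3.81 to 3.88). It was 2.88 for AN2530 and *hsp30*, 2.65 for AN3555 and *hsp30*, and 2.61 for AN1163 and *hsp78*. The smallest difference was that of the Hsp90 genes, at 0.53 (0.51 to 0.55). Within the set the order of the genes also differed, since *hsp104* had the largest log2 ratio in *A. nidulans* and its ortholog *hsp98* the smallest in *N. crassa*.

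**Figure D3:**
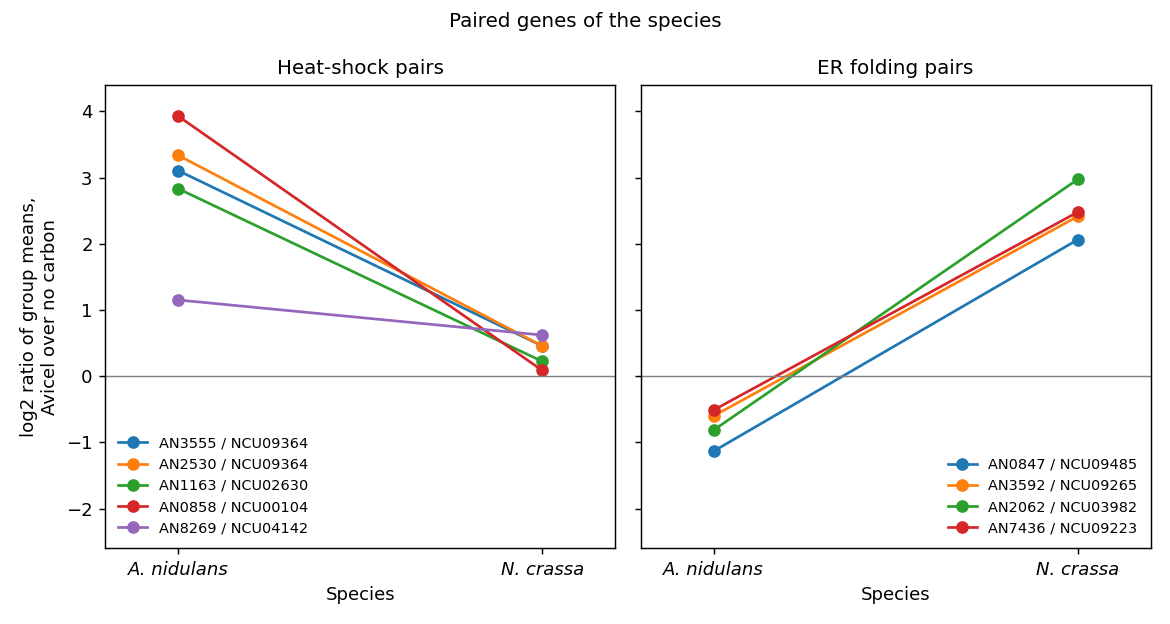
Log2 ratio of group means, Avicel over no carbon, for paired genes of *A. nidulans* (left) and *N. crassa* (right), with heat-shock genes in the left panel and ER folding genes in the right one. Each line joins a pair. Heat-shock genes lie at 1.15 or more in *A. nidulans*, against 0.09 to 0.62 in *N. crassa*, so all 5 lines slope down, while ER genes lie below 0 in *A. nidulans*, against 2.06 or more in *N. crassa*, so all 4 lines slope up.

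Folding genes of the ER, chaperones of another compartment, were set beside them and were taken from the study's ortholog list. They comprised an ER lumen chaperone (AN0847 in *A. nidulans*, *hsp70-6* NCU09485 in *N. crassa*), calnexin or calreticulin (AN3592, NCU09265), the ER Hsp70 (AN2062, NCU03982) and protein disulfide isomerase (AN7436, NCU09223). The study listed these pairs because the *N. crassa* member was induced on these libraries, with near constant expression in *A. nidulans*. The direction of the difference between the species was thus fixed by the choice, opposite to that of the 4 listed heat-shock pairs. That description came from clustering of log transcript abundances scaled within each pair, a measure unlike the ratios of means used here. By these ratios the *A. nidulans* members were all lower on Avicel, most of them by less than 2-fold. Whether such differences exceed the spread between cultures was not tested. AN0847, at a log2 ratio of -1.13, was more than 2-fold lower, as 3.18% of all genes were at least. Their log2 ratios ran between -1.13 and -0.51 in *A. nidulans*, below all 5 heat-shock genes, which began at 1.15. In *N. crassa* they ran between 2.06 and 2.97, above all 5 heat-shock genes, which ended at 1.30.

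The median log2 ratio of the heat-shock genes thus lay 3.81 above that of the ER genes in *A. nidulans* and 1.99 below it in *N. crassa* (difference -1.99). The ER pairs and the 4 listed heat-shock pairs had been picked for opposite patterns on these libraries, so the crossing is a description of them and no independent finding. AN8269, *hsp80* and *hsp70-1* came from the gene set and not from those pairs, but that set too was chosen with earlier results of these data known. In the Hsp70 family, the ER Hsp70 gene *grp78* (NCU03982) exceeded *hsp70-1* of the same species by 1.68 (1.65 to 1.70) on the log2 scale. In *A. nidulans* the ER Hsp70 gene *bipA* (AN2062) had authors' means of 73663.6 on Avicel and 129618 on no carbon, whereas AN0858 had 98328.7 on Avicel and 6451 on no carbon. Summed over the 4 ER genes of *A. nidulans*, the share of normalized counts was 0.400% on Avicel against 0.716% on no carbon. In *N. crassa* it was 0.942% on Avicel against 0.203% on no carbon.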

How the data were processed

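The authors mapped reads with TopHat 2.0.4 to predicted transcripts, counted those on unique exons with HTSeq and compared carbon sources in DESeq (versions of the last 2 not given in the sources used here, genome builds named only by strain). In the deposited tables, the signal of a gene is the mean, over the 3 libraries of a group, of counts divided by size factors. The tables also hold the authors' average over both groups, fold change, log2 fold change, p-value and adjusted p-value, which were not used. The other 10 samples were not analysed here.

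Ratios were computed in Python 3.11.15 with numpy 2.4.6 and pandas 2.3.3, with no pseudocount, and ranked among genes with an average mean of at least 50. Named genes were the 10 members, chaperones annotated in the study's lists, *N. crassa* genes whose RefSeq symbol or synonym (assembly NC12, 9078 of 9582 identifiers matched) names a heat-shock protein, *cbhA* and *cbh-1*, and for 4 members the gene nearest in both means. Members and lists were chosen with earlier results of these data known. Size factors came from the means under 4, each a whole-number sum of 3 read values (100% within 2e-06), and gave the 95% Poisson intervals, which were tested on simulated data and cover counting error only. Libraries were not tied to replicate numbers. The design text describes the replicates as biological. Alternatives were equal sums, median centring, a pseudocount of 10, fold limits and filters.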

Additional observations from a re-analysis of the deposited data

How the results depend on the processing

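The 5 *A. nidulans* genes stayed at least 2-fold higher under equal sums, median centring and a pseudocount of 10, with their median log2 ratio at 2.97 under equal sums. AN8269, the member outside the study's induced list, only just passed the limit with equal sums, at a log2 ratio of 1.01. In *N. crassa* the count of 1 gene became 0 with equal sums and also with a fold limit of 4, and the median of 0.46 became 0.00 (0.0019) with equal sums, so the small *N. crassa* ratios depend on the scaling. Median centring left the *N. crassa* count at 1 and the median at 0.46. The share of all genes at least 2-fold higher became 4.43% with equal sums in *N. crassa*, and with a fold limit of 4 it was 2.84% in *A. nidulans* and 2.81% in *N. crassa*. No difference between paired genes of the species turned its direction under the 3 settings tried for it, 9 pairs in each. Equal sums and median centring move every such difference upward by a common amount, so the heat-shock pairs could not turn. The ER pairs, at -2.99 or beyond, lay too far down to turn, and a pseudocount of 10 is small beside these means. The settings were thus no check of these directions. No paired analysis was possible because the tables hold group means, and for the same reason no library could be left out.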

Other observations

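By the distance over the log2 of both group means, the gene nearest to AN2530 outside the lists was AN6168 (*maeA*), at 0.81 with authors' means of 32755.5 on Avicel and 6912 on no carbon. The nearest to AN0858 was AN5267 (*faeC*, a feruloyl esterase), at 0.97 with means of 138911 on Avicel and 3638 on no carbon. Close matches outside the lists were thus lacking for these *A. nidulans* genes, while in *N. crassa* the nearest genes to *hsp30* (NCU06980) and *hsp98* (*qde-2*, NCU04730) lay at 0.0081 and 0.014. This contrast depends on how many genes lie nearby. A larger log2 ratio was found in 106 genes for AN2530 and 86 for AN0858, against 1481 for *hsp30* and 3461 for *hsp98*. The small heat-shock protein gene AN5781 was in the lists and so could not be a match. Likeness over 2 group means is a description only. AN0587, an Hsp70 family gene on the study's induced list, had means of 74.9 on Avicel and 18.5 on no carbon, a log2 ratio of 2.02 with a counting interval of 1.60 to 2.44, and it was under the limit on the mean.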
